A study of Mus musculus with 6 samples.

Results

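The cadherins and protocadherins of 3 circadian clock mutant fibroblast lines are described here. The members are all genes whose mouse symbol is Cdh followed by a number or begins with Pcdh, 93 of the 27179 genes in the count tables. They comprise 23 cadherins, 12 single protocadherins, and the clustered protocadherins with 14 Pcdha, 22 Pcdhb and 22 Pcdhg genes. Of these, 33 reached an average of 100 normalized counts across the 6 libraries and were tested: 9 cadherins, 3 single protocadherins, 8 Pcdhb genes, 13 Pcdhg genes and 0 Pcdha genes. The tested members nearest to that minimum were Pcdhga11, Pcdhb19 and Pcdhga1 with means of 111, 114 and 116, and the nearest members under it were Pcdhb5, Pcdhga3 and Pcdhga8 with means of 82.0, 79.4 and 72.1.

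Poly-A RNA was sequenced from immortalized embryonic fibroblast lines of C57BL/6 mice, untreated and growing at near confluence, in 2 RNA preparations per line. Cry/Per_KO cells carry cry1-/-, cry2-/-, per1-/- and per2-/-. Cry/Per/Nr1d_KO cells carry those mutations together with nr1d1-/- and nr1d2-/-, and are 1 clone made from Cry/Per_KO cells by lentiviral CRISPR/Cas9 and puromycin selection. Per/Nr1d_KO cells carry per1-/-, per2-/-, nr1d1-/- and nr1d2-/- and were made earlier with the same Nr1d guides, so loss of Per1 and Per2 is shared by all 3 lines and no unmutated line is present. CRY and PER proteins are repressors of the circadian activator CLOCK-BMAL1, and NR1D proteins are nuclear receptors that repress Bmal1. Each genotype is represented by 1 line, so genotype and line cannot be told apart, and p-values measure the spread between RNA preparations.

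For 2 of the 3 lines, Cry/Per_KO and Cry/Per/Nr1d_KO, the genotype of each library contradicts the name of its deposited counts, each pair being named for the other line. Libraries were grouped by genotype, and the 3 pairs are called the CPN-labelled (Cry/Per/Nr1d_KO), the CP-labelled (Cry/Per_KO) and the PN-labelled (Per/Nr1d_KO) libraries. Exchanging the names of the first 2 pairs turns the direction of the CP against CPN comparison and swaps the other 2 comparisons, while every value per library stays as it is. All 6 targeted genes were read in every library. The lowest value was 1004 normalized counts, for Per2 in a PN-labelled library, and Nr1d1 had 3158 and 3146 normalized counts in the CPN-labelled libraries against 9337 and 9249 in the CP-labelled ones. Each of the 6 was higher in the CP-labelled than in the CPN-labelled pair without overlap, so that with the names exchanged all would be higher in the cells that lack NR1D1 and NR1D2. The paper reports Cry1, Per1, Per2, Nr1d1 and Nr1d2 mRNA as lower in Cry/Per_KO than in Cry/Per/Nr1d_KO cells, and Cry2 as similar. For all of these but Cry2 that is the direction under the exchanged names. Which naming is right was not tested.

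Cadherins are calcium-dependent adhesion molecules whose extracellular repeats bind those of neighbouring cells. Classical cadherins are tied to actin inside the cell through β-catenin, α-catenin and p120-catenin, and mesenchymal cells such as fibroblasts typically carry N-cadherin (Cdh2) and cadherin-11 (Cdh11) rather than the epithelial E-cadherin (Cdh1). Protocadherins adhere more weakly and lack the catenin-binding tail. In the Pcdha and Pcdhg clusters each variable first exon has its own promoter and is spliced to constant exons shared by the cluster, and in neurons each cell uses a few of these promoters, brought to enhancers by CTCF and cohesin. Pcdhb genes have 1 exon each and no constant exons.

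Promoter sequences are shown for 6 members that were near 0 in one line with at least 50 raw counts per library in another, or that differed most among the single protocadherins. Cdh15 and Pcdhac2 also met the former description and are not shown. Each is the 250 bases before a RefSeq transcription start site (GRCm38.p6), 5′ to 3′ on the strand of the gene, with CpG dinucleotides in capitals. That site need not be the outermost start of the gene. By the gene coordinates given below, the windows of Cdh10 and Pcdh9 lie inside the gene, and that of Pcdh19 overlaps its end. CpG counts and motif matches describe these windows and not every promoter of a gene.
Pcdh9, chr14:93890680-93890929, reverse strand: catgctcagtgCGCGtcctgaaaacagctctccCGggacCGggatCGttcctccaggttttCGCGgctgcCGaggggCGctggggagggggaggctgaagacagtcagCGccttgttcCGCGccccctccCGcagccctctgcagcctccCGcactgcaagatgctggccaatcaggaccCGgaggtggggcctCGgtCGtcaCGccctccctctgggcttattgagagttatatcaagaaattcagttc
Pcdh17, chr14:84443313-84443562, forward strand: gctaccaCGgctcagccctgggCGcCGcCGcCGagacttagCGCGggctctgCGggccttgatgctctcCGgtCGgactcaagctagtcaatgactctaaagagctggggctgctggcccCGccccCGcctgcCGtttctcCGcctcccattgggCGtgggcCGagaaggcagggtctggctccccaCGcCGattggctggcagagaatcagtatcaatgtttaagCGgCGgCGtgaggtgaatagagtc
Pcdh20, chr14:88471397-88471646, reverse strand: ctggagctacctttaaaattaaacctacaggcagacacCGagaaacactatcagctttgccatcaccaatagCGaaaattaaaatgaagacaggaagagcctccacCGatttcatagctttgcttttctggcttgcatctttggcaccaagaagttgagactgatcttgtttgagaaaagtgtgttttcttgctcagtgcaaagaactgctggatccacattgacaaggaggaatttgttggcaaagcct
Pcdh19, chrX:133688994-133689243, reverse strand: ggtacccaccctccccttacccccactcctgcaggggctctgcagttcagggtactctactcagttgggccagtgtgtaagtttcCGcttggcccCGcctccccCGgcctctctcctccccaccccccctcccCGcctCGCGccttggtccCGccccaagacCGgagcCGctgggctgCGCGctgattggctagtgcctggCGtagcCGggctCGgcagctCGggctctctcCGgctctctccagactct
Cdh10, chr15:18820079-18820328, forward strand: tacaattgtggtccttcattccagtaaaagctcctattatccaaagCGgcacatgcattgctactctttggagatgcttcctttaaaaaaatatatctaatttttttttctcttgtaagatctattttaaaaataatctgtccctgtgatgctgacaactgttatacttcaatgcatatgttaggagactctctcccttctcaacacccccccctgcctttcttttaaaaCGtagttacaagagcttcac
Cdh26, chr2:178430265-178430514, forward strand: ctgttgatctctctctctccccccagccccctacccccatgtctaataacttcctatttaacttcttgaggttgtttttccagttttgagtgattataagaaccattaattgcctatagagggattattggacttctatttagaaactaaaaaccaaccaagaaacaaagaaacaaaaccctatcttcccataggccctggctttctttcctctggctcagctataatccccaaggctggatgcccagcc

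The promoters in this set ran from 0 CpG in Cdh26 and 2 in Cdh10 to 21 in Pcdh17, and Pcdh9 held 18, Pcdh19 16 and Pcdh20 3. The median was 6 over all 27025 promoters of that length in the table and 9 over the 22 members found in it. The CLOCK-BMAL1 E-box CACGTG was in 6.05% of all promoters on either strand and in 1 of the 22 members, Cdh15. The nuclear receptor half-site AGGTCA was in 13.8% of all promoters and in 1 member, Cdh18. No member's window held both motifs, and a match is a description of letters only.

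Among the tested members, the PN-labelled libraries differed from the other 4 in every class tested, whereas the CP- and CPN-labelled libraries differed mainly in clustered protocadherins. A gene was called at an adjusted p under 0.05 and a fold above 1.75. With a minimum mean of 10, Pcdh10, Pcdh17, Pcdh20, Cdh6, Cdh18 and Cdh22 outside the clusters were also called between the CP- and CPN-labelled libraries, as were further clustered genes. Of these, Pcdh10, Pcdh17, Cdh6 and Cdh22 reached that minimum only through the CPN-labelled libraries, so their calls are descriptions. In the CP-labelled against the CPN-labelled libraries, 12 of the 33 tested members were called higher, all of them Pcdhb or Pcdhg genes, and 1, Cdh10, was called lower; over all 11934 genes tested, 7.86% were called higher and 8.95% lower. In the PN-labelled against the CPN-labelled libraries, 14 members were called higher and 12 lower, against 11.3% and 9.35% of all genes. In the PN-labelled against the CP-labelled libraries, 10 were called higher and 17 lower, against 15.2% and 13.8%. The median absolute log2 fold change of the tested members was 0.50, 2.30 and 2.11 in these comparisons, beside 0.34, 0.34 and 0.46 over all genes tested. The 3 comparisons share libraries in pairs, and a member abundant in 1 line only is tested because of that line, so these counts are descriptions. The 2 groups of libraries did not overlap for 31, 31 and 32 of the 33 members, which 86.4%, 87.1% and 90.4% of all genes tested also showed.

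**Figure D1:**
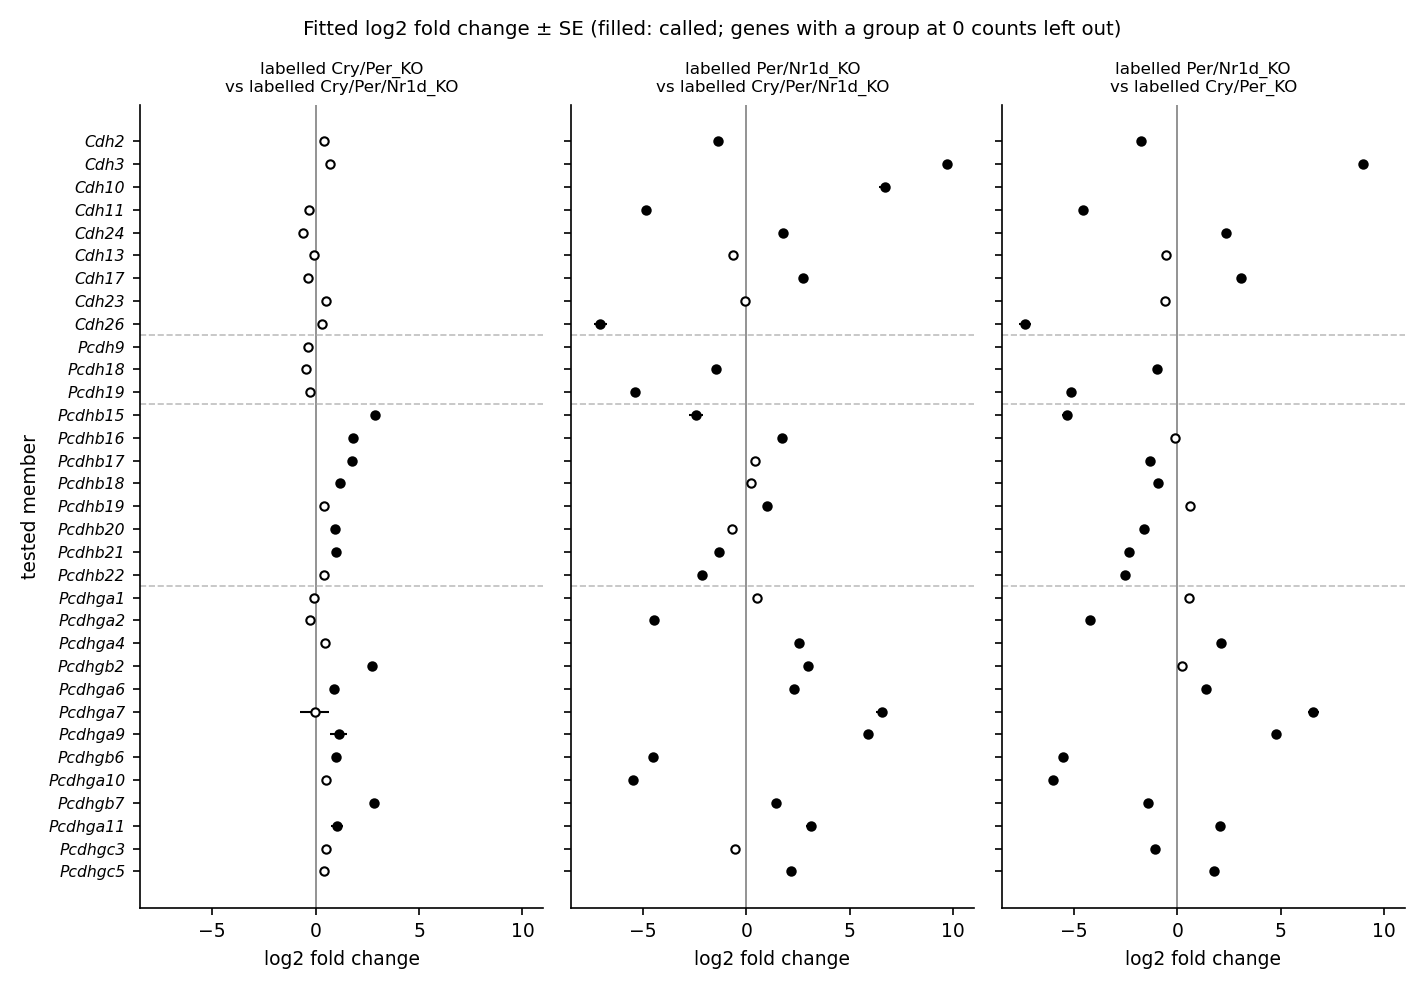
Fitted log2 fold changes (x axis) with their standard errors for the 33 tested members (y axis), in cadherins, single protocadherins, Pcdhb and Pcdhg genes from top to bottom, one panel per comparison. Filled points were called, and a gene is left out of a panel where both libraries of a group had 0 counts. The left panel holds 12 filled points, all to the right of 0 and all in the clusters, while the other panels spread to 9.71 (Cdh3) on the right and to -7.37 (Cdh26) on the left.

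Among the classical cadherins Cdh2 had the most counts in the CPN- and CP-labelled libraries, and Cdh3 in the PN-labelled ones. Cdh2, N-cadherin (chromosome 18, 16588877 to 16809246), had 21348 and 23023 normalized counts in the CPN-labelled libraries, 28712 and 29277 in the CP-labelled and 8862 and 8202 in the PN-labelled ones. It was abundant everywhere and lowest in the PN-labelled pair, without overlap. The log2 fold change was -1.38 ± 0.050 (SE) in the PN-labelled against the CPN-labelled libraries (adjusted p = 1.15e-12, n = 2 per line in edgeR) and -1.77 ± 0.051 against the CP-labelled (adjusted p = 4.84e-14). In the CP-labelled against the CPN-labelled pair it was 0.39 ± 0.049, under the limit on the fold. Cdh3, P-cadherin (chromosome 8, 106510852 to 106556911), had 22.2 and 24.4 normalized counts in the CPN-labelled libraries, 42.3 and 34.4 in the CP-labelled, and 19967 and 18985 in the PN-labelled ones. These are an 835-fold and a 509-fold difference for the PN-labelled pair, or 9.71 ± 0.090 and 8.99 ± 0.085 on the log2 scale (edgeR, adjusted p = 3.41e-19 and 3.22e-19). Cdh3 was tested because of the PN-labelled pair, so these values are descriptions.

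Cdh1, E-cadherin, lies next to Cdh3 on chromosome 8 (106603350 to 106670247) and was not tested at the minimum of 100. Its raw counts were 9 and 25, 10 and 9, and 79 and 140 in the CPN-, CP- and PN-labelled libraries. The PN-labelled pair was the highest in both libraries. With genes of a mean of at least 10 admitted, its log2 fold change was 2.64 ± 0.32 against the CPN-labelled and 3.40 ± 0.36 against the CP-labelled libraries (edgeR, adjusted p = 4.85e-07 and 6.44e-08). Cdh15, M-cadherin of muscle progenitors, had 2 and 1, 2 and 0, and 53 and 79 raw counts, a 43.4-fold difference (95% counting interval 14.5 to 213) of the PN-labelled from the CPN-labelled and 61.5-fold (16.7 to 513) from the CP-labelled libraries.

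Type II cadherins went in both directions in the PN-labelled libraries. Cdh11 (chromosome 8, 102632095 to 102785493), a cadherin of mesenchyme and bone, had 15165 and 16332 normalized counts in the CPN-labelled libraries, 12383 and 12717 in the CP-labelled, and 564 and 522 in the PN-labelled ones. The PN-labelled pair was thus 29.2-fold and 23.2-fold lower, with log2 fold changes of -4.87 ± 0.062 and -4.54 ± 0.062 (edgeR, adjusted p = 5.02e-18 and 8.69e-18). The CP-labelled pair differed from the CPN-labelled one by -0.33 ± 0.048, which was not called. Cdh24 (chromosome 14, 54631231 to 54642067), a type II cadherin that binds catenins, went the other way with 650 and 666, 443 and 429, and 2276 and 2169 normalized counts. Its PN-labelled pair was 3.38-fold and 5.09-fold higher, 1.76 ± 0.068 and 2.35 ± 0.072 on the log2 scale (edgeR, adjusted p = 2.54e-12 and 1.09e-13), where the median of chromosome 14 was 0.52 and 0.62.

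Cdh10 (chromosome 15, 18818869 to 19016206), a type II cadherin best known from brain, was read in the PN-labelled libraries with 370 and 593 raw counts, against 8 and 1 in the CPN-labelled and 0 and 0 in the CP-labelled ones. Against the CP-labelled pair this is at least 149-fold, taking 3 counts per library as the limit that a count of 0 allows. Against the CPN-labelled pair the log2 fold change was 6.68 ± 0.26 (edgeR, adjusted p = 8.01e-12), which became 8.56 without the first CPN-labelled library and 6.02 without the second. Cdh10 was tested because of the PN-labelled pair, so these values are descriptions. The call of Cdh10 as lower in the CP-labelled than in the CPN-labelled libraries rests on those 9 raw counts and was lost without the first CPN-labelled library (adjusted p = 0.169). Its neighbours on chromosome 15 were low or at 0, with at most 95 raw counts in any library for the other 4 cadherins there, Cdh6, Cdh9, Cdh12 and Cdh18.

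The atypical cadherins split in a like manner. Cdh26 (chromosome 2, 178430515 to 178487366), a cadherin described in epithelial and allergic tissue, had 333 and 231 raw counts in the CPN-labelled libraries, 291 and 365 in the CP-labelled, and 3 and 1 in the PN-labelled ones. The ratios to the PN-labelled pair were 143 (95% counting interval 55.6 to 527) and 176 (68.4 to 648), and its promoter above is the one without CpG. The fitted log2 fold changes of -7.06 and -7.37 ran from -8.25 to -6.15 and from -8.55 to -6.44 when one or the other PN-labelled library was left out. Cdh17, liver-intestine cadherin, had 56.8 and 68.9 (CPN-labelled), 50.1 and 47.1 (CP-labelled), and 447 and 383 (PN-labelled) normalized counts, 2.72 ± 0.15 and 3.08 ± 0.15 on the log2 scale for the PN-labelled pair (edgeR, adjusted p = 1.28e-10 and 4.21e-11). The PN-labelled libraries were highest for Cdh17 and lowest for Cdh26, each without overlap. Cdh17 was tested because of the PN-labelled pair, so its p-values are descriptions.

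Cdh13 and Cdh23 were called in no comparison. Cdh13, T-cadherin, which is held by a lipid anchor and has no cytoplasmic tail, had 3712 and 3818, 3651 and 3476, and 2478 and 2339 normalized counts, and the PN-labelled pair differed by -0.65 ± 0.053 and -0.57 ± 0.054 on the log2 scale (edgeR, adjusted p = 2.63e-08 and 9.25e-08). Both differences passed the adjusted p and stayed under the limit on the fold. Cdh23, a component of the tip link of hair cells, had 178 and 153, 243 and 228, and 152 and 159 normalized counts, and its CPN- and PN-labelled libraries overlapped (-0.09 ± 0.13, adjusted p = 0.529).

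**Figure D2:**
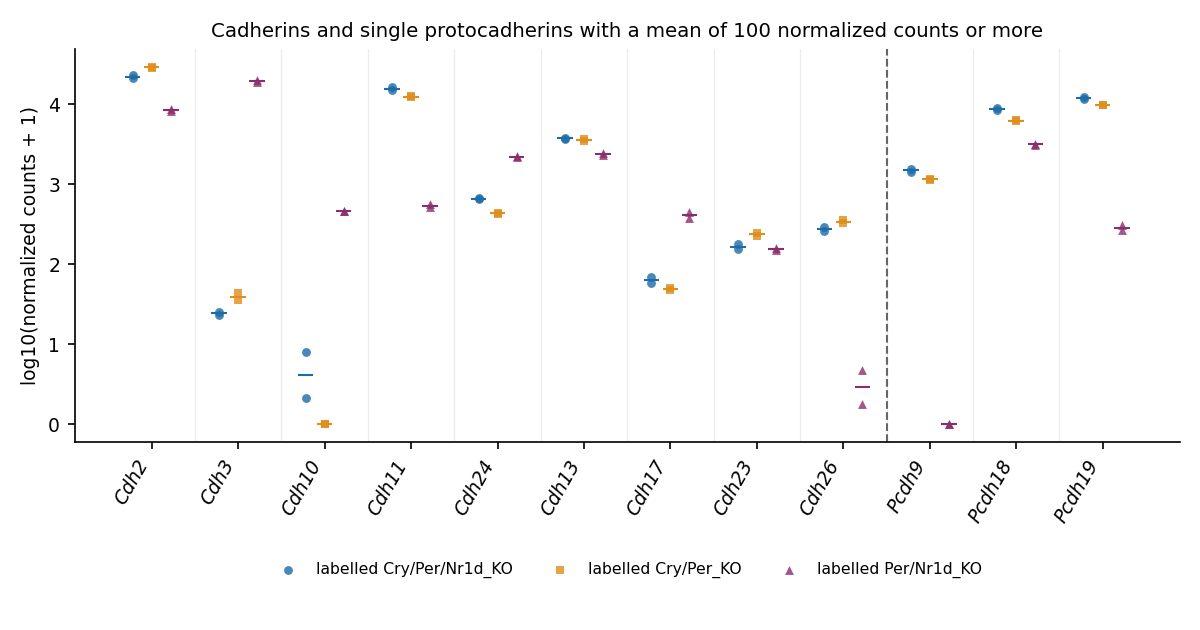
Level of each tested cadherin (left of the dashed line) and single protocadherin (right), as log10 of normalized counts plus 1 on the y axis. Points are single libraries, 2 per line, and short bars are the means of the 2 log values. Cdh3, Cdh10, Cdh24 and Cdh17 were highest in the PN-labelled libraries (triangles), which were lowest for Cdh2, Cdh11, Cdh26, Pcdh9, Pcdh18 and Pcdh19.

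The 3 tested single protocadherins were all called lower in the PN-labelled libraries, beside 9.35% of all genes against the CPN-labelled and 13.8% against the CP-labelled pair, and were called in neither direction between the CP- and CPN-labelled ones (edgeR; 3 were lower at an unadjusted p under 0.05, and DESeq2 called 0). Pcdh19 (chromosome X, 133582860 to 133689044), a δ2-protocadherin mutated in a female-limited epilepsy, had 11584 and 12465 normalized counts in the CPN-labelled libraries, 9953 and 9727 in the CP-labelled, and 309 and 265 in the PN-labelled ones. The PN-labelled pair was 42.4-fold and 34.7-fold lower (-5.41 ± 0.071 and -5.12 ± 0.071 on the log2 scale; edgeR, adjusted p = 7.28e-18 and 1.13e-17). Pcdh18 (chromosome 3, 49743291 to 49757383), also a δ2-protocadherin, had 8501 and 8940, 6302 and 6169, and 3207 and 3149 normalized counts. The log2 fold change of the PN-labelled pair was -1.46 ± 0.047 and -0.97 ± 0.047 (edgeR, adjusted p = 2.82e-13 and 2.97e-11), while the median of chromosome 3 in these comparisons was 0.24 and 0.88. Between the CP- and CPN-labelled libraries Pcdh18 differed by -0.48 ± 0.046 beside a chromosome 3 median of -0.65, and subtracting that median turned its sign (0.16).

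Pcdh9 (chromosome 14, 93013700 to 93892834), a δ1-protocadherin, had 1618 and 1401 raw counts in the CPN-labelled libraries, 1051 and 1168 in the CP-labelled, and 0 and 0 in the PN-labelled ones. At 3 counts per library the PN-labelled pair was at least 485-fold and 375-fold lower, the widest such bounds among the members. Pcdh20 and Pcdh17 lie on the same chromosome and were also at 0 in both PN-labelled libraries. Pcdh20 (88464743 to 88471396) had 42 and 27 raw counts in the CPN-labelled and 119 and 112 in the CP-labelled libraries, so that the PN-labelled pair was at least 39.3-fold lower than the CP-labelled one. Pcdh17 (84443563 to 84537565), a δ2-protocadherin of corticobasal ganglia circuits, had 64 and 58 raw counts in the CPN-labelled libraries but only 1 and 1 in the CP-labelled ones, a ratio of 57.7 (95% counting interval 15.6 to 482), and the PN-labelled pair was at least 19.7-fold lower than the CPN-labelled one.

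Between Pcdh17 and Pcdh20 lie the protein-coding genes Diaph3 and Tdrd3, and these were read in every line. Diaph3 had 3798 and 6416 raw counts in the PN-labelled libraries, and Tdrd3 had 1901 and 3188. The absence of counts in the PN-labelled libraries was therefore not shared by every gene of this stretch of chromosome 14. No protein-coding gene of the count tables lies between Pcdh20 and Pcdh9. The other 9 single protocadherins, Pcdh17 and Pcdh20 included, were not tested and had between 0 and 119 raw counts per library.

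By raw counts, 7 members were on in one line, with at least 50 counts in both libraries, and off in another, with at most 3 in both. Off in the PN-labelled libraries were Pcdh9, Pcdh17, Pcdh20, Cdh26 and Pcdhac2, off in the CP-labelled ones were Pcdh17, Cdh10 and Cdh15, and off in the CPN-labelled ones was Cdh15. At the other end, 23 members had at most 3 counts in every library and 10 of them had 0 throughout. These were 13 Pcdha genes, 8 cadherins, 1 Pcdhb gene and 1 single protocadherin.

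The clustered protocadherins lie in the order Pcdha, Pcdhb, Pcdhg on chromosome 18, where 61 of the members are found. The median log2 fold change of the 316 genes tested on this chromosome was 0.28 in the CP- against the CPN-labelled libraries, -0.21 in the PN- against the CPN-labelled and -0.45 in the PN- against the CP-labelled ones. Shared constant exons were not counted for every gene of a cluster, since Pcdhga12 had 17 to 45 raw counts per library where Pcdhgc3 had 4972 to 13254. How reads of the constant exons were otherwise assigned, and whether strand was used, is not given in the sources used here. Of the exon bases of Pcdhga10, 55.2% lie opposite an exon on the other strand, as do 28.4% of those of Pcdhgc3 and 29.0% of those of Pcdhga11, so part of their counts is uncertain. Of the 50-base stretches of Pcdhgb2 and Pcdhgb6, 16.4% and 11.9% also occur in another gene.

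The Pcdha cluster was nearly silent apart from its last gene. The alternate genes Pcdha1 to Pcdha12 summed to 0 raw counts in all 4 CPN- and CP-labelled libraries and to 3 and 9 in the PN-labelled ones. Pcdhac2, the C-type gene at the end of the cluster, had 20 and 10 raw counts in the CPN-labelled libraries, 112 and 126 in the CP-labelled, and 0 and 0 in the PN-labelled ones. The CP-labelled pair was at least 40.3-fold above the PN-labelled one.

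In the Pcdhb cluster the genes at the far end, Pcdhb14 to Pcdhb22, carried most of the counts in every line. The cluster summed to 3055 ± 97.1 normalized counts (SD, n = 2) in the CPN-labelled libraries, 5541 ± 101 in the CP-labelled and 2047 ± 112 in the PN-labelled ones. Pcdhb1 to Pcdhb13 gave 325 ± 9.42, 27.1 ± 0.553 and 93.6 ± 7.42 of these. The high value of the CPN-labelled pair came mainly from Pcdhb5, with 235 and 188 raw counts against 6 and 12 in the CP-labelled and 23 and 34 in the PN-labelled libraries. With genes of a mean of at least 10 admitted, the log2 fold change of Pcdhb5 was -4.46 ± 0.24, -2.91 ± 0.19 and 1.55 ± 0.36 in the 3 comparisons (edgeR, adjusted p = 1.03e-11, 9.16e-11 and 0.000765).

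Of the 8 tested Pcdhb genes, 6 were called higher in the CP- than in the CPN-labelled libraries and 0 lower (edgeR; 0 lower at an unadjusted p under 0.05 or in DESeq2), beside 7.86% and 8.95% of all genes. With the minimum of 10, Pcdhb2 (-3.38 ± 0.66) and Pcdhb9 (-3.46 ± 0.58) joined Pcdhb5 as called lower, which made 3 lower beside the 6 higher (11.9% and 10.5% of all genes at that minimum). Pcdhb2 reached that minimum only through the CPN-labelled libraries, so its call is a description. Pcdhb15 had 38.2 and 49.98 normalized counts in the CPN-labelled libraries, 325 and 315 in the CP-labelled and 10.1 and 6.31 in the PN-labelled ones, and differed by 2.88 ± 0.16, -2.46 ± 0.34 and -5.34 ± 0.23 on the log2 scale. Pcdhb17 had 404 and 470, 1536 and 1405, and 615 and 562 normalized counts, and its CP-labelled pair was 3.38-fold above the CPN-labelled and 2.51-fold above the PN-labelled one. Both genes were highest in the CP-labelled libraries without overlap. Pcdhb16 (1.82 ± 0.11), Pcdhb18 (1.16 ± 0.14), Pcdhb21 (0.97 ± 0.097) and Pcdhb20 (0.93 ± 0.12) were the other 4 called in this comparison, each with an edgeR adjusted p of 3.49e-06 or less. After the chromosome 18 median was subtracted, Pcdhb20 and Pcdhb21 were no longer called.

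The PN-labelled libraries differed from the CP-labelled ones by 6 Pcdhb genes called lower and 0 higher (edgeR; 1 higher at an unadjusted p under 0.05, 0 in DESeq2), and from the CPN-labelled ones by 2 higher and 3 lower. Of all genes, 15.2% were called higher and 13.8% lower in the former comparison, and 11.3% and 9.35% in the latter. After the chromosome 18 median was subtracted, Pcdhb18 was no longer called lower in the former comparison (-0.50) and Pcdhb19 was called higher (1.04). Pcdhb22, at the Pcdhg end of the cluster, had 1395 and 1354 normalized counts in the CPN-labelled libraries, 1799 and 1865 in the CP-labelled and only 313 and 316 in the PN-labelled ones (-2.13 ± 0.075 and -2.54 ± 0.074; edgeR, adjusted p = 7.64e-13 and 5.9e-14). Pcdhb21 was also lower in the PN-labelled pair (-1.35 ± 0.12 and -2.32 ± 0.11). Pcdhb16 and Pcdhb19 were the 2 called higher in the PN- than in the CPN-labelled libraries, at 1.73 ± 0.11 and 1.01 ± 0.17. Pcdhb16 overlapped between the CP- and PN-labelled libraries, at 520 and 490 against 496 and 451 normalized counts.

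These differences changed which gene led the cluster. Pcdhb22 took 45.0% ± 2.38 (SD, n = 2) of the Pcdhb counts in the CPN-labelled and 33.1% ± 1.44 in the CP-labelled libraries, followed by Pcdhb17 and Pcdhb21. In the PN-labelled libraries Pcdhb17 led with 28.7% ± 0.251, followed by Pcdhb16 with 23.1% ± 0.259 and Pcdhb22 with 15.4% ± 0.932. The 3 leading genes together took 69.1% ± 1.59, 70.1% ± 0.875 and 67.2% ± 0.422 of the cluster in the CPN-, CP- and PN-labelled libraries.

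**Figure D3:**
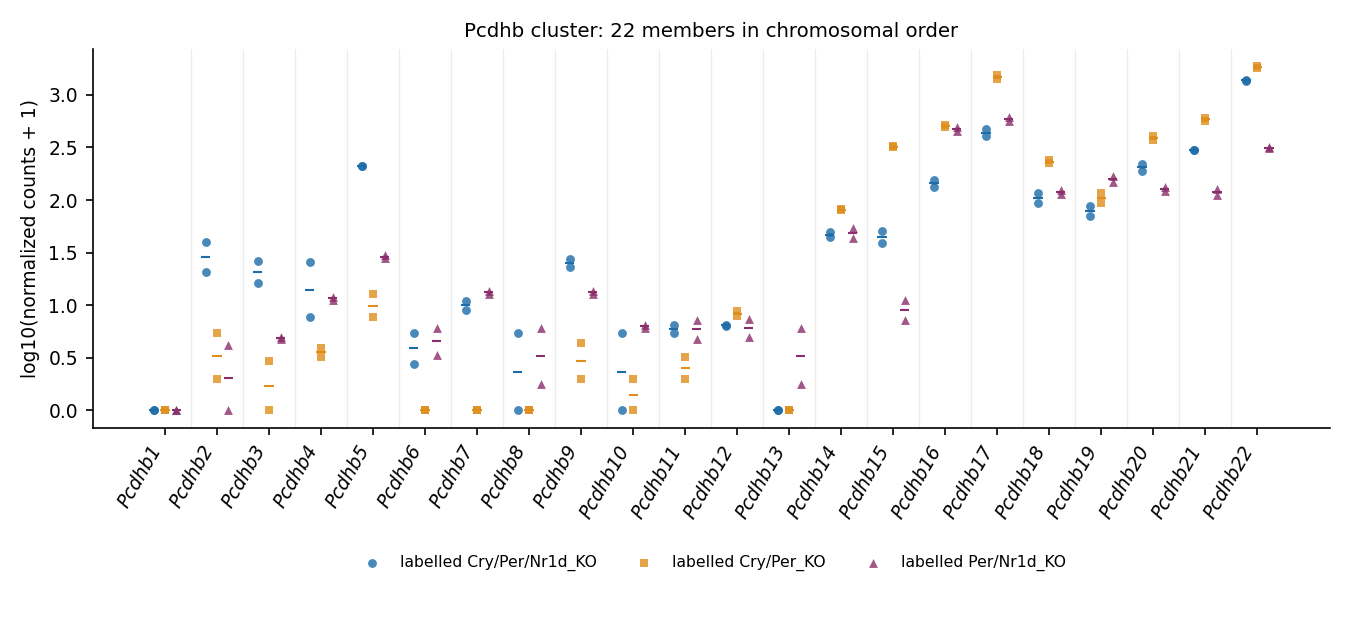
The 22 Pcdhb genes in chromosomal order (x axis) with log10 of normalized counts plus 1 (y axis). Points are single libraries, 2 per line, with short bars at the means of the log values. Counts were low up to Pcdhb13 except for Pcdhb5 in the CPN-labelled libraries, and the PN-labelled libraries (triangles) lay lowest at Pcdhb15, Pcdhb20, Pcdhb21 and Pcdhb22.

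In the Pcdhg cluster the 3 A and B type genes with the most counts were the same in the CPN- and CP-labelled libraries and were others in the PN-labelled ones. Pcdhga10 had 903 and 1011 normalized counts in the CPN-labelled libraries, 1321 and 1384 in the CP-labelled, and 20.3 and 21.3 in the PN-labelled ones. Pcdhgb6 had 780 and 857, 1623 and 1599, and 27.9 and 40.2, and Pcdhga2 had 537 and 592, 467 and 469, and 26.6 and 24.5 normalized counts. All 3 were far lower in the PN-labelled pair, by -5.51 ± 0.14 and -6.01 ± 0.14 for Pcdhga10, -4.52 ± 0.14 and -5.50 ± 0.13 for Pcdhgb6, and -4.47 ± 0.15 and -4.20 ± 0.15 for Pcdhga2 on the log2 scale against the CPN- and CP-labelled libraries (edgeR, adjusted p at most 7.75e-13).

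The converse held for Pcdhga9, Pcdhga7 and Pcdhga4. Pcdhga7 had 8.88 and 1.11 normalized counts in the CPN-labelled libraries, 3.34 and 6.87 in the CP-labelled, and 511 and 514 in the PN-labelled ones, a 92.5-fold and a 96.1-fold difference. On the log2 scale these values of 6.53 and 6.59 rest on few counts in the lower pairs: the former became 8.69 without the first CPN-labelled library and 5.83 without the second, and the latter 7.21 without the second CP-labelled one. Pcdhga9 had 14.2 and 4.44, 21.1 and 21.6, and 572 and 605, which is 59.1-fold (5.89 on the log2 scale, or 7.01 without the first CPN-labelled library) and 27.4-fold. Pcdhga4 had 60.4 and 55.5, 83.5 and 75.6, and 326 and 355, which is 5.87-fold and 4.31-fold. For each of them the PN-labelled pair stood above both other pairs without overlap (edgeR, adjusted p at most 7.74e-10). Each was tested because of the PN-labelled pair, so these p-values are descriptions.

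As a share of all Pcdhga and Pcdhgb counts, Pcdhga10, Pcdhgb6 and Pcdhga2 took 80.5% ± 2.29 (SD, n = 2) in the CPN-labelled libraries, 69.5% ± 0.121 in the CP-labelled and 2.79% ± 0.237 in the PN-labelled ones. Pcdhga9, Pcdhga7 and Pcdhga4 took 2.50% ± 0.656, 2.15% ± 0.0700 and 50.1% ± 0.933 in the same lines. The genes were chosen here as the 3 leading ones of the CPN- and PN-labelled libraries, so the shares are a description. The summed level of the A and B type genes moved far less than its makeup, at 2903 ± 128, 4936 ± 33.2 and 2879 ± 40.3 normalized counts. Pcdhga2 is the second gene of the cluster, and Pcdhgb6 and Pcdhga10 follow Pcdhga9 directly. Pcdhgb2, described next, had nearly the same level as Pcdhga4 in the PN-labelled libraries.

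Other A and B type genes were used by more than one line. Pcdhga6 and Pcdhga11 were higher in the PN-labelled than in the CPN-labelled libraries (2.30 ± 0.15 and 3.11 ± 0.21, the latter 3.79 without the first CPN-labelled library) and than in the CP-labelled ones (1.41 ± 0.13 and 2.08 ± 0.19). Pcdhgb2 was at 44.4 and 42.2 normalized counts in the CPN-labelled libraries but at 296 and 288 in the CP-labelled and 330 and 350 in the PN-labelled ones. Pcdhgb7 was highest in the CP-labelled libraries, at 333 and 290 against 43.5 and 43.3 in the CPN-labelled and 110 and 124 in the PN-labelled ones. Pcdhga1 was called in no comparison, with 111 and 95.5, 97.9 and 97.2, and 160 and 137 normalized counts, but was called higher in the PN- than in the CP-labelled libraries after the chromosome 18 median was subtracted (1.04). Pcdhga3, the untested Pcdhg gene with the highest mean (79.4), had 61 and 47, 93 and 119, and 64 and 87 raw counts. Pcdhga8, with a mean of 72.1, had 31 and 22, 152 and 188, and 15 and 10, and was highest in the CP-labelled pair.

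Between the CP- and CPN-labelled libraries, 6 of the 13 tested Pcdhg genes were called higher and 0 lower (edgeR; 1 lower at an unadjusted p under 0.05, 0 in DESeq2), beside 7.86% and 8.95% of all genes. The largest differences were those of Pcdhgb7 (2.83 ± 0.16) and Pcdhgb2 (2.75 ± 0.15; edgeR, adjusted p = 4.02e-10 and 2.53e-10). Pcdhga9 (1.11 ± 0.41), Pcdhga11 (1.03 ± 0.28), Pcdhgb6 (0.98 ± 0.080) and Pcdhga6 (0.89 ± 0.18) were the others. The calls of Pcdhga9 and Pcdhga11 were lost without the second CPN-labelled library (0.59 and 0.64 on the log2 scale) and their values rose to 2.23 and 1.71 without the first one. The call of Pcdhga6 was lost without the second CP-labelled library (0.75). With the chromosome 18 median subtracted, Pcdhgb2, Pcdhgb7 and Pcdhga9 remained called. In all, 7 of the 12 members called higher in this comparison remained so, beside 794 of 11934 genes called higher with each chromosome's median subtracted.

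The C-type genes followed another pattern. Pcdhgc3 was the most abundant clustered protocadherin in every library, with 9062 and 9172 normalized counts in the CPN-labelled libraries, 12808 and 13014 in the CP-labelled and 6302 and 6133 in the PN-labelled ones. It took 74.5% ± 0.573, 71.2% ± 0.124 and 62.8% ± 0.854 (SD, n = 2) of the cluster's counts. It was called lower in the PN- than in the CP-labelled libraries (-1.05 ± 0.043; edgeR, adjusted p = 2.97e-12), a call that was lost when the chromosome 18 median was subtracted (-0.61), and it was not called in the other comparisons. Pcdhgc5 went the other way, with 171 and 159, 223 and 215, and 731 and 744 normalized counts, 2.16 ± 0.099 and 1.75 ± 0.096 higher in the PN-labelled pair on the log2 scale (edgeR, adjusted p = 1.9e-11 and 1.15e-10).

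**Figure D4:**
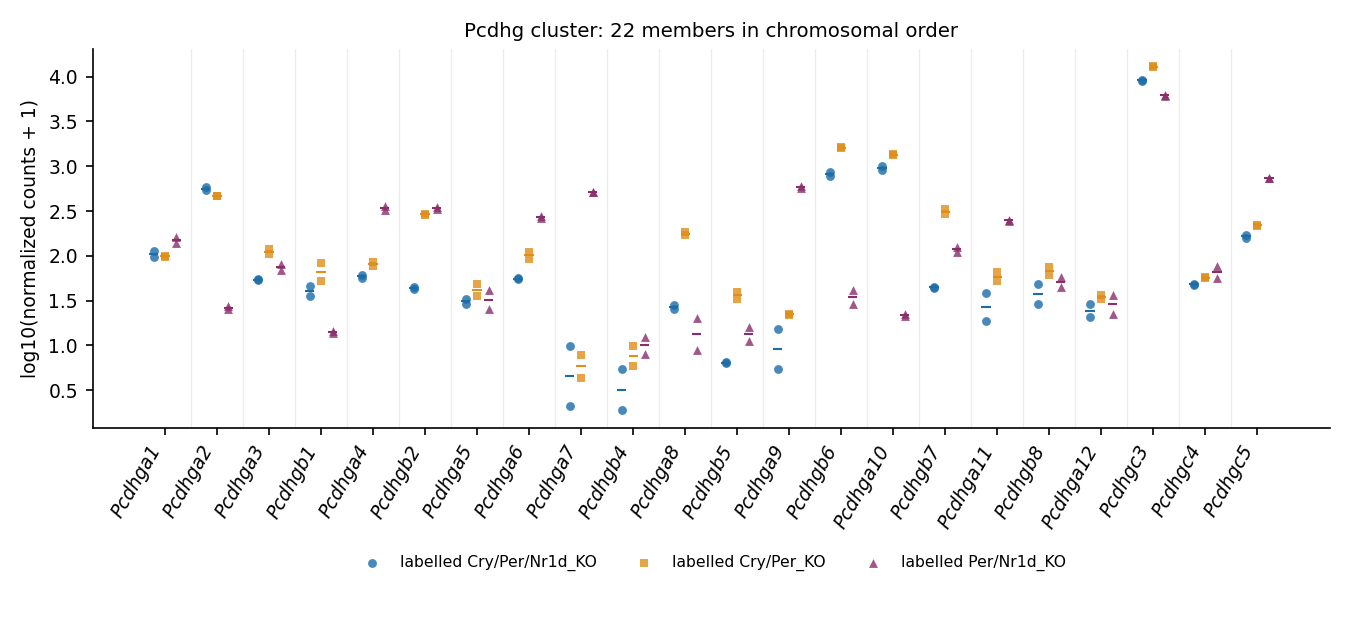
The 22 Pcdhg genes in chromosomal order (x axis) with log10 of normalized counts plus 1 (y axis), drawn from single libraries, 2 per line, with short bars at the means of the log values. The PN-labelled libraries (triangles) were low at Pcdhga2, Pcdhgb6 and Pcdhga10 and high at Pcdhga4, Pcdhga7 and Pcdhga9, and Pcdhgc3 had at least 6133 normalized counts in every library.

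Per length, the most abundant members also changed with the line. As mean TMM-scaled CPM per kilobase of unshared exon, Cdh2 was at 41.7, 54.6 and 16.1 in the CPN-, CP- and PN-labelled libraries, Pcdhgc3 at 40.9, 58.0 and 27.9, and Cdh11 at 26.8, 21.4 and 0.925. Cdh3 was at 0.0807 and 0.133 in the CPN- and CP-labelled libraries and at 67.4 in the PN-labelled ones, where it was the highest of all members by this measure. Pcdh18 was at 24.7, 17.6 and 8.99, and Pcdh19 at 17.4, 14.3 and 0.417. Cdh13 varied least among the cadherins above 1 on this scale in every line, from 3.25 to 5.09.

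Genes that act with the members were described from lists and tested in the same fit. Of 26 catenins and junction partners, 23 were tested, and 1 was called higher and 4 lower in the CP- against the CPN-labelled libraries, 3 and 7 in the PN- against the CPN-labelled, and 3 and 3 in the PN- against the CP-labelled ones. Over all genes tested, 16.8%, 20.7% and 29.0% were called in either direction in these comparisons, shares against which the counts of this list and of the next 3 are to be read. α-Catenin (Ctnna1), β-catenin (Ctnnb1) and p120-catenin (Ctnnd1), which join classical cadherins to the cytoskeleton or hold them at the membrane, were called in no comparison, with log2 fold changes between -0.56 and 0.58. The neural Ctnnd2 had 429 and 426 normalized counts in the CPN-labelled libraries and at most 11.4 in any other. The desmosomal plakophilin Pkp1 had 394 and 331, 17.8 and 28.5, and 1209 and 1163 normalized counts, and Pkp3 had 104 and 88.8, 194 and 227, and 24.1 and 26.8.

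Of 27 further cadherin superfamily genes, 8 were tested, with 0 called higher (edgeR; 1 at an unadjusted p under 0.05, 0 in DESeq2) and 4 lower in the CP- against the CPN-labelled libraries, 3 and 3 in the PN- against the CPN-labelled, and 6 and 2 in the PN- against the CP-labelled ones. Dchs1, the ligand of Fat4 in planar polarity, had 799 and 710 normalized counts in the CPN-labelled libraries, 57.9 and 69.7 in the CP-labelled and 783 and 770 in the PN-labelled ones. Fat1 was 1.15 ± 0.043 and 1.16 ± 0.043 higher in the PN-labelled pair on the log2 scale, and Fat4 1.10 ± 0.055 and 1.56 ± 0.056 higher.

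Of 9 transcription factors known to repress Cdh1, 8 were tested. In edgeR 0 were called higher and 1 lower in the CP- against the CPN-labelled libraries, 0 and 1 in the PN- against the CPN-labelled, and 1 and 2 in the PN- against the CP-labelled ones, near the shares over all genes (16.8%, 20.7% and 29.0%). The counts of 0 became 5 and 2 at an unadjusted p under 0.05 and were 0 in DESeq2. Zeb2 was lower in the PN-labelled pair, at 2965 and 2783 normalized counts against 9137 and 10015 in the CPN-labelled and 11596 and 10906 in the CP-labelled libraries. Of 13 regulators of the clustered protocadherins, all tested, edgeR called 0 higher and 2 lower in the CP- against the CPN-labelled libraries, 0 in either direction in the PN- against the CPN-labelled, and 2 higher and 1 lower in the PN- against the CP-labelled ones. At an unadjusted p under 0.05 the counts of 0 became 1 higher in the first comparison and 2 higher and 7 lower in the next, where DESeq2 called 0, 0 and 1. Setdb1, a histone methyltransferase that silences clustered protocadherins in neurons, was lowest in the CP-labelled pair, at 3560 and 3469 normalized counts against 7446 and 7621 in the CPN-labelled and 10257 and 10613 in the PN-labelled libraries. Setdb1 lies on chromosome 3, whose median was -0.65 in the CP- against the CPN-labelled and 0.88 in the PN- against the CP-labelled libraries. Dnmt3b, a DNA methyltransferase, was also lowest in the CP-labelled pair, at 188 and 184 normalized counts against 364 and 333 and 340 and 321, and Ctcf was called in no comparison.

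Totals of 53764390 to 85927236 counts per library (median 62471571.5) were obtained, and the 2 libraries of a line correlated at 0.998 across genes while differing by more than sampling noise. Of 11 fibroblast markers, 8 had a mean of at least 100, with a summed level of 922736 to 971635 normalized counts in the CPN-labelled, 862152 to 887899 in the CP-labelled and 1772689 to 1793367 in the PN-labelled libraries. Col1a1, Col1a2, Col3a1, Col5a1 and Fn1 were highest and Pdgfra, Pdgfrb and Vim lowest in the PN-labelled pair, and Thy1 and Lum were near 0. Epithelial markers (9) summed to 84.4 to 98.6 in the CPN-labelled, 13.7 to 27.8 in the CP-labelled and 722 to 727 in the PN-labelled libraries, where 668 and 675 were Krt19, while Krt8, Krt18, Krt5 and Krt14 had at most 7 raw counts. Neural markers (8) summed to 5703 to 6016, 5819 to 5980 and 1172 to 1176, with Snap25 at 0. In the PN-labelled pair the fibroblast and epithelial sums were highest together with Cdh3 and Cdh1, and the neural sum was lowest together with Pcdh9. Between the CPN- and CP-labelled pairs the epithelial sum went the other way from Cdh3, and the neural sums overlapped. The part of these markers in those results was not tested. Endothelial markers (7, with Tie1 and Cldn5 at 0) summed to 80.5 to 217, skeletal muscle markers (6, with Myod1 and Myf5 at 2 counts or fewer) to 26.5 to 114, and immune markers (6, with Cd3e at 0) to 203 to 333 normalized counts.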

How the data were processed

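The authors aligned 50-base single-end reads of TruSeq stranded libraries with STAR (mm10) and used featureCounts for gene counts, which they deposited raw, as whole numbers, 1 file per library. The strand setting and the treatment of multi-mapping reads are not given in the sources used here. Deposited DESeq2 (1.22.2) tables hold the authors' means, fold changes, standard errors and p-values and were not used.

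Entrez Gene IDs were matched to RefSeq symbols of GRCm38.p6 (25275 of 27179), and exon lengths came from GENCODE. Counts of all 6 libraries entered 1 edgeR 4.0.16 quasi-likelihood fit (R 4.3.3, TMM, 3 groups) over the 11934 genes that averaged 100 normalized counts or more, which are counts scaled to the mean effective library size. Calls needed a Benjamini-Hochberg adjusted p under 0.05 over all genes tested and a fold above 1.75. A standard error is the log2 fold change divided by the square root of F. Counting intervals are exact Clopper-Pearson intervals at 95%, and intervals and floors cover counting error only. Every member with a mean of at least 100 is named, with on/off members and the untested member with the highest mean of each class; other members under that mean, and the genes between Pcdh17 and Pcdh9, were added after their values were seen. The members and lists were chosen with earlier results of these data known.

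The fit was tested on simulated data for the Per/Nr1d_KO against Cry/Per/Nr1d_KO comparison over 11920 genes. It recovered 86 of 87 genes changed by 1 and 108 of 108 changed by 2 on the log2 scale, with 0 unchanged genes called. All genes were given the same biological spread in that simulation, so it does not measure the error rate in these data. Alternatives were DESeq2 1.42.0, the study's criteria, median-of-ratios factors, other minima, no fold limit, compared groups alone, a replicate block, leaving out each library, and subtraction of each chromosome's median log2 fold change. Totals of 53764390 to 85927236 counts gave a biological coefficient of variation of 0.0393, and each SD rests on 2 libraries.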

Additional observations from a re-analysis of the deposited data

How the results depend on the processing

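DESeq2, median-of-ratios size factors and minima of 10 or 0 kept the direction and the call of 99 of 99 values of tested members, and the compared groups alone kept 87 of 87. The study's criteria (adjusted p under 1e-22) lowered the members called higher from 12 to 5, from 14 to 9 and from 10 to 5 in the CP- against CPN-, PN- against CPN- and PN- against CP-labelled comparisons, and those called lower in the first from 1 to 0; of all genes 4.02%, 8.34% and 11.5% were then called higher and 5.61% lower in the first. Without a limit on the fold the first comparison had 22 higher and 7 lower, beside 38.1% and 38.3% of all genes. A minimum of 10, which admitted 22 more members, gave 18 higher and 8 lower in the first comparison (10.5% and 11.9% of all genes). In the second it gave 18 higher and 23 lower, not 12 (13.4% and 13.1%). No minimum gave 18 higher in each of these comparisons, beside 1717 and 2242 of all 20375 genes. It gave 12 and 26 lower there (10.3% and 11.5% of all genes), and 16 higher, not 10, in the third (13.8%). Subtracting chromosome medians left 7 of the 12 higher in the first comparison, beside 794 of all 11934 genes. It turned the sign of Pcdh18 there (0.16) and of the uncalled Pcdhb16 in the third (0.35). Without 1 library the members called lower in the first comparison ran from 0 to 1, being 0 without the first CPN-labelled or without either PN-labelled library, where Cdh10 fell under the minimum in the latter cases. Of 576 values without 1 library, 4 lost their call, 2 gained one and 4 turned sign, all of them uncalled: Pcdhga1 ran from -0.19 to 0.031 and Pcdhga7 from -0.75 to 2.11 in the first comparison, and Cdh23 from -0.19 to 0.029 in the second. Where a cause is not named it was not tested.

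A replicate block changed no call, with 12, 14 and 10 members higher and 1, 12 and 17 lower. The numbers do not pair the libraries: deviations of libraries with the same number correlated at -0.21, -0.10 and -0.02 across genes. At these depths the limit set by a count of 0 is 3 counts, which is 2.37 to 3.80 normalized counts. Each line is 1 line with 2 RNA preparations, and for 2 of the 3 pairs the genotype and the name of the counts disagree.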

Other observations

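A few members with too few counts for the test were read mainly in the CPN-labelled libraries. Pcdh10, a δ2-protocadherin on chromosome 3, had 37 and 36 raw counts there and 0 in each of the other 4 libraries. Cdh6, known from kidney and neural crest, had 26 and 35 raw counts there and at most 1 elsewhere, and Cdh22, a type II cadherin of brain, had 67 and 44 against at most 5. Pcdh10, Cdh6 and Cdh22 reached a mean of 10 only through the CPN-labelled libraries. Their calls at that minimum are therefore descriptions and no test. The same holds for the log2 fold changes of Cdh22, -4.63 ± 0.49 (CP- against CPN-labelled) and -3.96 ± 0.43 (PN- against CPN-labelled). Cdh18, the untested cadherin with the highest mean (54.2 normalized counts), was lowest in the CPN-labelled libraries, with 14 and 20 raw counts against 63 and 68 in the CP-labelled and 62 and 95 in the PN-labelled ones (2.01 ± 0.28 and 2.18 ± 0.27; edgeR, adjusted p = 3.58e-06 and 8.32e-07). Pcdh10, Cdh6 and Cdh22 were picked after their values were seen.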
